A study of Mus musculus with 24 samples.

Results

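The 7 genes described here encode the Id proteins (Id1, Id2, Id3 and Id4) and the class I basic helix-loop-helix (bHLH) factors, or E proteins (Tcf3, Tcf4 and Tcf12), that pair with ATOH1. They were found by gene identifier among the 45513 genes counted in each library, and all 7 passed the filter on low counts in every comparison. The list was not blind to these data. It was selected on measured genotype differences, in that the fold changes and adjusted p-values of 9S/T-A against WT were known from these same libraries, with Id2 and Id4 among the genes called in both tissues. Differences between genotypes, and the product of genotype and tissue that is built from them, are therefore given for these 7 genes as descriptions, and nothing is read from whether a member was called there, whereas differences between tissues and between sexes were not used to choose them and are tested.

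The 24 libraries were made from EpCAM+tdTom+ live cells sorted from the small intestine (SI) or colon of adult C57BL/6 mice aged 8 to 16 weeks, 24 h after a single intraperitoneal dose of 3 mg tamoxifen. The WT groups were Atoh1(WT)CreERT2 R26RtdTom mice, and the 9S/T-A groups were Atoh1(9S/T-A)CreERT2 R26RtdTom mice, in which 9 serine- or threonine-proline sites of ATOH1 were changed to alanine-proline. Both alleles were homozygous and carried CreERT2 behind the endogenous Atoh1 coding sequence, so every group, controls included, had a modified Atoh1 locus, the reporter and tamoxifen. The reporter marks cells in which the Atoh1 locus was active around the time of the dose, namely goblet and Paneth cells and their progenitors, and not a single cell type. Each of the 4 groups (WT and 9S/T-A cells of the SI, WT and 9S/T-A cells of the colon) had 6 libraries, numbered 2 to 7, of which 2, 5 and 7 were female and 3, 4 and 6 male. The design text speaks of 6 mice, and the labels do not say which libraries share an animal, so the p-values measure the spread between these libraries.

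Basic helix-loop-helix factors bind DNA as pairs. A tissue-restricted factor such as ATOH1 pairs with a broadly expressed E protein and together they recognise a short sequence, the E-box, written CANNTG. Id proteins have the helix-loop-helix but lack the basic region that touches DNA, so an E protein held by an Id protein cannot bind an E-box. Id genes are well known targets of bone morphogenetic protein (BMP) signalling through SMAD factors, and in the intestine they are expressed in crypts and in differentiating epithelium. Tcf3 encodes E12 and E47, Tcf12 encodes HEB, and Tcf4 encodes E2-2. Tcf4 here is not the Wnt effector of the same nickname, whose gene is Tcf7l2, and counts per gene do not separate E12 from E47.

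Each library held 36 M to 65.8 M counts on genes (M, mega), and the lowest count of any member in any library was 153, for Id4. Levels are given as CPM, counts scaled to a common library size, after correction by the trimmed mean of M-values (TMM), and levels of different genes are compared only after division by the summed exon length in kilobases (kb). The sorted cells carried the markers that their labels imply. The 9 goblet markers summed to between 315095 and 508029 CPM in the SI and between 36057 and 82377 CPM in the colon. The 7 Paneth markers summed to between 43977 and 91569 CPM in the SI and between 188 and 1496 CPM in the colon. Absorptive markers were present too, with 9 that summed to between 1489 and 4937 CPM in the SI and between 336 and 674 CPM in the colon. Stromal markers were near 0, with summed levels of at most 3.3 CPM for 7 fibroblast and muscle markers and 0.744 CPM for 4 endothelial markers, and Col3a1 and Sox10 had no count in any library. The 10 leukocyte markers summed to between 28.9 and 92.2 CPM in the SI and between 4.02 and 7.97 CPM in the colon, with 4 of the 10 above 0 in all 24 libraries. In bulk RNA, fewer cells of a type and less RNA per cell cannot be told apart.

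Id1 had the highest level per kb of exon among the 7 genes in all 4 groups, followed by Id3. In WT SI, Id1 stood at 137 ± 19.3 CPM per kb (SD, n = 6) and Id3 at 106 ± 16.8 CPM per kb, and the ranges of the 2 genes overlapped. Id2 followed at 24.7 ± 3.76 CPM per kb, then Tcf3 at 13.3 ± 1.27 CPM per kb. Tcf12 (4.87 ± 0.286 CPM per kb) and Id4 (4.49 ± 0.471 CPM per kb) were neighbours with overlapping ranges, and Tcf4 was lowest at 0.726 ± 0.0823 CPM per kb. In WT colon the order changed at a single place, where Tcf3 (9.52 ± 0.396 CPM per kb) stood above Id2 (7.94 ± 0.914 CPM per kb). In 9S/T-A SI, Id4 stood at 14.9 ± 2.39 CPM per kb, below Id2 (40.6 ± 4.58 CPM per kb) and with a range that overlapped that of Tcf3 (12.4 ± 0.7 CPM per kb). In 9S/T-A colon Id4 stood between Tcf3 (9.25 ± 0.652 CPM per kb) and Tcf12 (3.12 ± 0.168 CPM per kb), at 5.6 ± 1.05 CPM per kb. The exon lengths are unions over all annotated transcripts, 12.25 kb for Tcf4 and 15.529 kb for Tcf12 against 1.16 kb for Id1, so a gene with many alternative exons is understated on this scale.

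**Figure D1:**
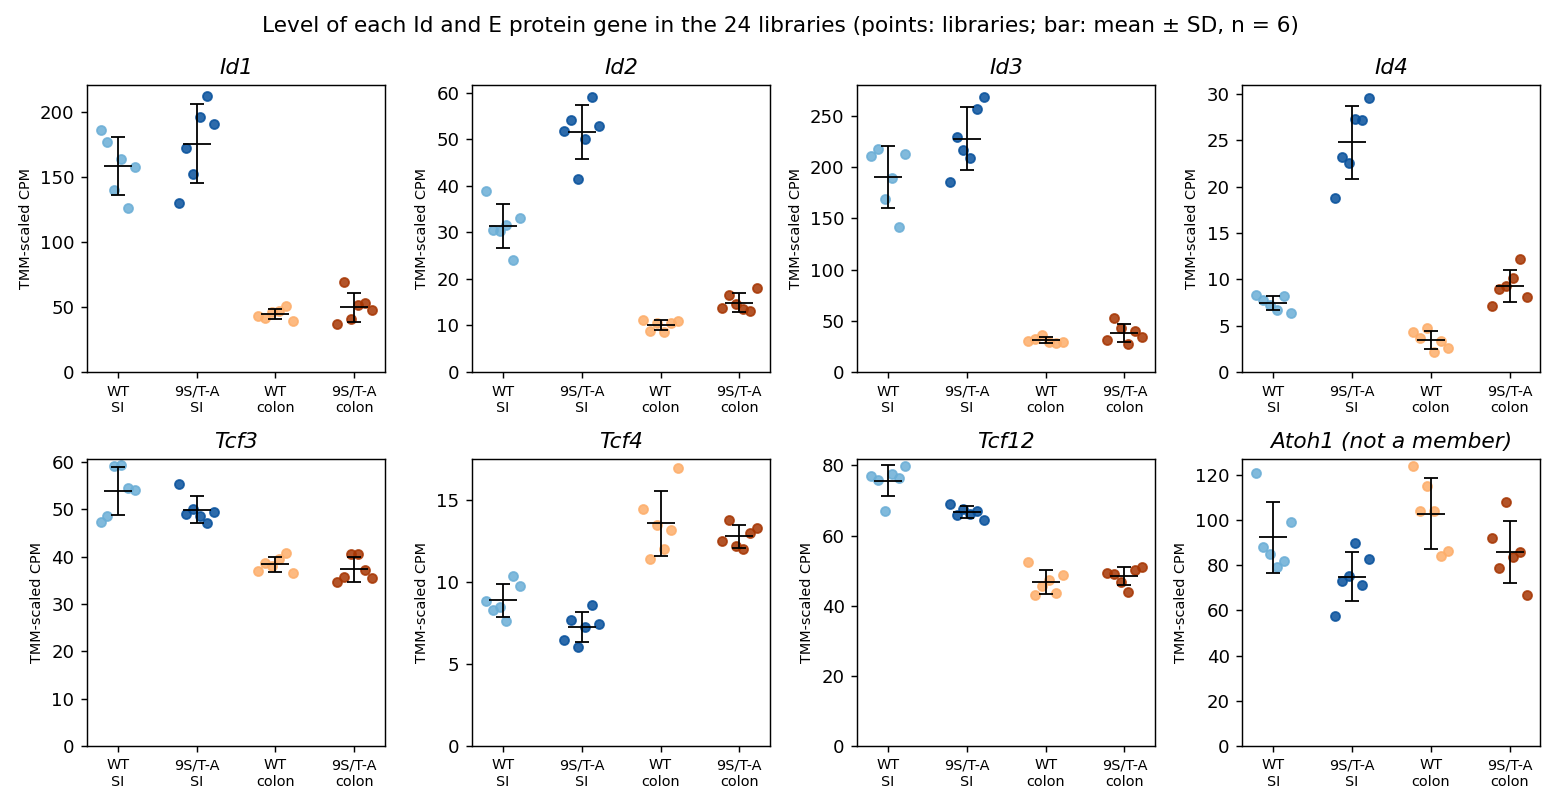
TMM-scaled CPM of each of the 7 genes and of Atoh1 in the 24 libraries, by group, with points for libraries and bars for the mean ± SD (n = 6). The 4 Id genes, Tcf3 and Tcf12 were lower in colon than in SI in both genotypes and Tcf4 was higher, while Id4 separated the genotypes within each tissue, at 18.8 CPM or more in 9S/T-A SI against at most 8.31 CPM in WT SI.

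RefSeq promoter sequences (GRCm38.p6) were at hand for 5 of the 7 genes, with none used for Id1 and Tcf4. They are shown because E-boxes are what the E proteins bind, and because GGCGCC is a motif known for SMAD binding at BMP target genes. Both motifs were searched in the 250 bases before each start site. Start sites are those of the promoter entries, which can differ from the gene spans used for counting. For Id4 the entry (48260866 to 48261165) ended before the counted gene began, at 48261427. For Id3 the entry (136143572 to 136143871) lay inside the counted gene, which began at 136143497. CANNTG and GGCGCC read the same on both strands, and CAGCTG, the E-box form below, is contained in CANNTG. Each window has the motif in capitals and runs 5′ to 3′ on the strand of the gene.
Id2 E-box, chr12:25096271-25096300, minus strand, starting 196 bases before the start site: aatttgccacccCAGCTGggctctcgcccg
Id2 GGCGCC, chr12:25096306-25096335, minus strand, starting 231 bases before the start site: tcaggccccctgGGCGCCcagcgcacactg
Id4 GGCGCC, chr13:48260956-48260985, plus strand, starting 148 bases before the start site: ctcgggttgcccGGCGCCccgccctcgcca
Tcf12 E-box, chr9:72112042-72112069, minus strand, starting 240 bases before the start site farthest upstream: agatgctgccCAGCTGcgtccccgtcgc
Tcf3 E-box, chr10:80433672-80433701, minus strand, starting 54 bases before the start site: agtgggcgtggtCACTTGggggcgtggctt
Among 32817 mouse promoter windows of the same length, 66.2% held at least 1 CANNTG, 13% held CAGCTG and 9.59% held GGCGCC. Of the 3 windows of Tcf12, 2 held a CANNTG, the one shown and a CAAGTG starting 149 bases before another start site. A further E-box form, CAGATG or CATCTG, was in none of the windows of these 5 genes or of Atoh1, beside 14.5% of all windows. The windows of Id3 and Atoh1 held neither CANNTG nor GGCGCC, and that of Id4 held no CANNTG. A match is a run of letters and not a measured binding site.

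The tissue comparison asked how the colon differed from the SI within each genotype. All 4 Id genes were lower in colon than in SI in WT cells and again in 9S/T-A cells, which came from other libraries, and Id3 had the largest difference of the 4 in both. Of the E proteins, Tcf4 was higher in colon, and Tcf3 and Tcf12 were lower by less than any Id gene. With edgeR's quasi-likelihood test and Benjamini-Hochberg adjustment over all genes, 7 of 7 members passed an adjusted p of 0.05 in WT, where 63.6% of 16979 tested genes passed, and 7 of 7 passed in 9S/T-A, where 60.9% of 16938 passed. In the lower direction there were 6 of 7 members in each genotype, against 30.4% of all genes in WT and 28.0% in 9S/T-A. The median log2 fold change of the 7 was -1.14 in WT and -1.44 in 9S/T-A, against 0.03 and 0.04 over all genes tested. With TMM scaling, called markers of most cell types were also lower in colon. In WT this held for 6 of 9 goblet, 7 of 7 Paneth, 7 of 7 enteroendocrine, 3 of 4 tuft and 6 of 9 absorptive markers tested. It also held for 4 of 5 stem, 6 of 6 cycling, 6 of 7 leukocyte and 5 of 6 epithelial markers. In 9S/T-A the counts were 6 of 9 goblet, 6 of 7 Paneth, 7 of 7 enteroendocrine, 3 of 4 tuft and 6 of 9 absorptive. They were 3 of 5 for stem, 2 of 6 for cycling, 6 of 7 for leukocyte and 5 of 6 for epithelial markers. On plain library totals the median gene was 0.74 (WT) and 0.85 (9S/T-A) higher in colon on the log2 scale. The direction of small marker differences therefore depends on the scaling. Car1 and Aqp8, absorptive markers of the colon, were higher in colon in both genotypes (log2 fold changes of 8.67 and 4.91 in WT), as was the myeloid marker Itgam in 9S/T-A (0.62). The part of these cell types in the Id and E protein differences was not tested.

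Id3 (ENSMUSG00000007872, chromosome 4, 136143497 to 136145755) was at 141 CPM in the lowest WT SI library, 199.9 in the median and 218 in the highest, against 28.5, 29.6 and 36.5 CPM in WT colon. None of the 7 genes overlapped between the tissues in either genotype, which was also so for 43.5% of all genes tested in WT and 41.1% in 9S/T-A. The colon level was 6.28-fold lower, which is -2.65 ± 0.113 (SE) on the log2 scale (edgeR adjusted p = 1.74e-11). In 9S/T-A the range was 185 to 268 CPM in SI and 27.6 to 52.7 CPM in colon, and the log2 fold change was -2.60 ± 0.156 (edgeR adjusted p = 1.44e-09).

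Id1 (ENSMUSG00000042745, chromosome 2, 152736251 to 152737410), the classical BMP-responsive Id gene, ranged from 126 to 186 CPM in WT SI (median 161) and from 39.6 to 50.4 CPM in WT colon (median 44.8). Every colon library lay below every SI library. The log2 fold change was -1.86 ± 0.0986 (edgeR adjusted p = 2.33e-10), or 3.63-fold lower. In 9S/T-A, Id1 ranged from 129.9 to 212 CPM in SI and from 36.6 to 69 CPM in colon, or -1.85 ± 0.156 on the log2 scale (edgeR adjusted p = 7.48e-08).

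Id2 (ENSMUSG00000020644, chromosome 12, 25093801 to 25096092), also a factor of innate lymphoid cells, was at 24, 31 and 38.8 CPM (lowest, median and highest) in WT SI and at 8.51, 10.6 and 11.1 CPM in WT colon. The log2 fold change between the tissues was -1.67 ± 0.111 in WT (edgeR adjusted p = 3.38e-09) and -1.82 ± 0.103 in 9S/T-A (edgeR adjusted p = 8.01e-10), with no overlap of the tissues in either genotype. Cytotoxic and T lymphocyte markers moved the same way. Gzma, a granzyme of cytotoxic lymphocytes, averaged 36.5 CPM in WT SI and 0.118 CPM in WT colon, and its part in the Id2 level was not tested.

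Id4 (ENSMUSG00000021379, chromosome 13, 48261427 to 48264036), an Id gene best known from neural tissue, was the lowest of the Id genes, at 6.42 to 8.31 CPM in WT SI (median 7.52) and 2.21 to 4.7 CPM in WT colon (median 3.48). These groups stood apart in spite of the low level. The log2 fold change was -1.14 ± 0.167 in WT (edgeR adjusted p = 2.25e-05) and -1.44 ± 0.138 in 9S/T-A (edgeR adjusted p = 3.16e-07).

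Tcf4 (ENSMUSG00000053477, chromosome 18, 69344146 to 69687967) ran the other way, from 7.63 to 10.4 CPM in WT SI (median 8.65) to between 11.4 and 17 CPM in WT colon (median 13.4). Each colon library exceeded every SI library of the same genotype. The log2 fold change was 0.58 ± 0.111 in WT (edgeR adjusted p = 0.000296) and 0.79 ± 0.098 in 9S/T-A (edgeR adjusted p = 4.93e-06). Tcf12 (ENSMUSG00000032228, chromosome 9, 71842688 to 72111871) was at 67 to 79.9 CPM in WT SI and 42.9 to 52.4 CPM in WT colon. Its log2 fold change was -0.73 ± 0.0672 in WT (edgeR adjusted p = 1.56e-07) and -0.49 ± 0.0619 in 9S/T-A (edgeR adjusted p = 6.33e-06). Tcf3 (ENSMUSG00000020167, chromosome 10, 80409514 to 80433647) was at 47.3 to 59.5 CPM in WT SI and 36.6 to 40.8 CPM in WT colon. Its log2 fold change was -0.52 ± 0.0677 in WT (edgeR adjusted p = 6.82e-06) and -0.45 ± 0.0663 in 9S/T-A (edgeR adjusted p = 3.08e-05). Atoh1 itself did not pass the test between tissues in either genotype, with log2 fold changes of 0.12 ± 0.117 (edgeR adjusted p = 0.379) and 0.17 ± 0.119 (edgeR adjusted p = 0.245).

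The direction for Tcf3 and Tcf12 rested on the scaling. A few secretory transcripts took up a large part of the SI counts, and with plain library totals in place of TMM the median gene was 0.74 higher in colon on the log2 scale in WT and 0.85 higher in 9S/T-A. On plain totals Tcf3 was at 0.19 and 0.35 and Tcf12 at -0.01 and 0.32 in WT and 9S/T-A, so that the sign turned in 3 of these 4 values, and in WT neither gene passed the test, while in 9S/T-A both passed it as higher in colon. Relative to the median gene they were still lower, at -0.55 and -0.49 for Tcf3 and -0.75 and -0.53 for Tcf12. The Id genes stayed lower in colon on plain totals (log2 fold changes from -1.93 to -0.43) and Tcf4 stayed higher (1.30 and 1.60). All genes called split into 5625 higher and 5169 lower in WT with TMM, and into 12241 higher and 1903 lower with plain totals. In 9S/T-A the split was 5576 higher and 4743 lower with TMM, and 12546 higher and 1653 lower with plain totals.

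Same-numbered SI and colon libraries varied together, and all 6 number-matched pairs in each genotype had a lower level in colon for each Id gene, Tcf3 and Tcf12 and a higher level for Tcf4. Within females and within males, with 3 libraries a group, the tissues did not overlap for any of the 7 genes in either genotype. The ratio of means for Id3 was -2.80 (log2) in WT females and -2.44 in WT males.

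**Figure D2:**
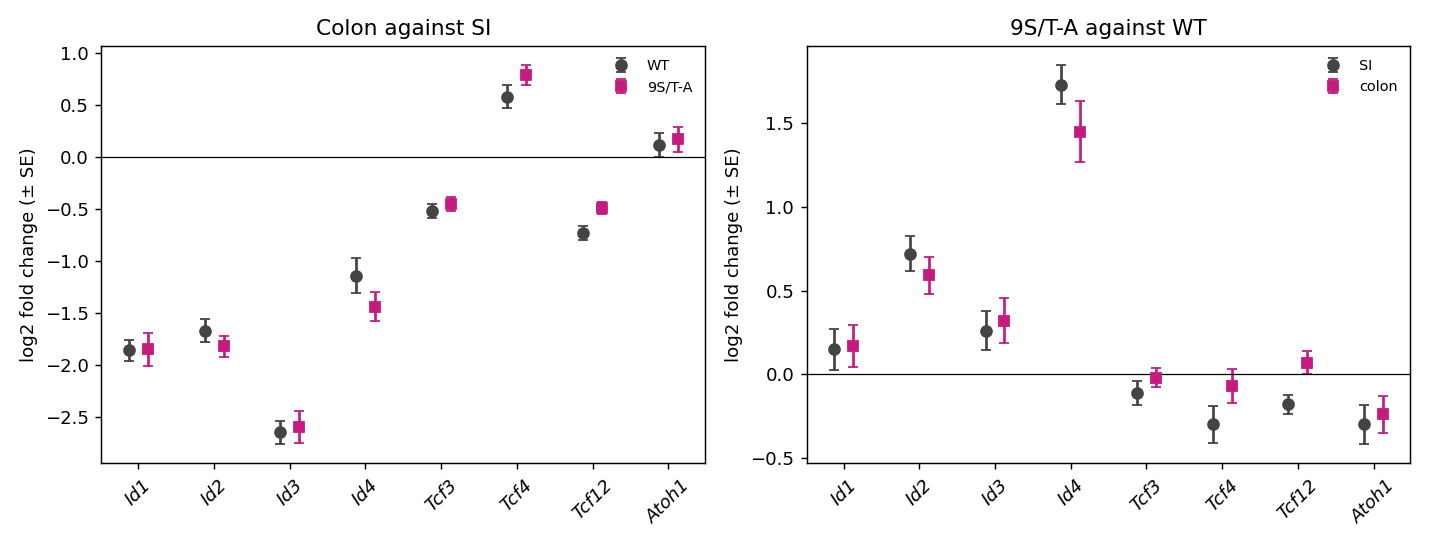
Log2 fold change ± SE (edgeR) of each gene for colon against SI (left, in WT and in 9S/T-A) and for 9S/T-A against WT (right, in SI and in colon). On the left the 4 Id genes lie between -2.65 and -1.14 and Tcf4 above 0, and on the right Id4 (1.73 and 1.45) and Id2 (0.72 and 0.59) lie above the other genes; the signs of Tcf3 and Tcf12 on the left depend on the scaling.

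The genotype comparison asked what changed when ATOH1 could not be phosphorylated at the 9 sites. It is the comparison that was known when the genes were listed, and the values describe it. Id4 was at 6.42, 7.52 and 8.31 CPM (lowest, median and highest) in WT SI, against 18.8, 25.2 and 29.6 CPM with the 9S/T-A allele. In the colon it was at 2.21, 3.48 and 4.7 CPM in WT, against 7.16, 9.09 and 12.2 CPM. The lowest 9S/T-A library lay above the highest WT library in each tissue. The difference came to 3.32-fold in SI (log2 fold change 1.73 ± 0.118, SE) and 2.73-fold in colon (1.45 ± 0.182). The 9S/T-A colon level of Id4 overlapped the WT SI level, at 7.16 to 12.2 CPM against 6.42 to 8.31 CPM.

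Id2 was at 24 to 38.8 CPM in the SI of WT mice against 41.5 to 59.1 CPM in that of 9S/T-A mice, and at 8.51 to 11.1 against 13 to 18 CPM in the colon. Here too the genotypes did not overlap in either tissue. The log2 fold change was 0.72 ± 0.106 in SI and 0.59 ± 0.111 in colon, or 1.65-fold and 1.5-fold. Id1 and Id3 overlapped between the genotypes in both tissues. For Id1 the log2 fold changes were 0.15 ± 0.123 in SI and 0.17 ± 0.127 in colon, and for Id3 they were 0.26 ± 0.117 and 0.32 ± 0.134. The E proteins overlapped as well. In SI their log2 fold changes were -0.11 ± 0.0726 (Tcf3), -0.30 ± 0.108 (Tcf4) and -0.18 ± 0.0566 (Tcf12), and in colon -0.02 ± 0.0564, -0.07 ± 0.103 and 0.07 ± 0.0682. Atoh1, the gene that carries the mutation, averaged 92.3 ± 15.5 CPM in WT against 75 ± 11 CPM in 9S/T-A cells of the SI, and 103 ± 15.7 against 85.9 ± 13.6 CPM in the colon (SD, n = 6 each). It overlapped between genotypes and did not pass the test in SI (log2 fold change -0.30 ± 0.118, edgeR adjusted p = 0.23) or in colon (-0.24 ± 0.11, edgeR adjusted p = 0.558). Whether reads over the changed codons aligned less well was not tested, and the level was not used to check the genotype labels.

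Of the 7 genes, Id2 and Id4 passed an adjusted p of 0.05 in SI, where 1.94% of 16236 tested genes passed, and in colon, where 0.318% of 16997 passed. Groups that did not overlap made up 2.07% of the genes tested in SI and 0.906% in colon. Because the list was drawn up on this comparison, nothing is read from these counts. The colon call of Id2 was lost in 9 of 12 fits that left out 1 library and kept without WT colon 7, 9S/T-A colon 6 or 9S/T-A colon 7. In each of those 12 fits its log2 fold change lay between 0.51 and 0.63. Among females Id4 had a log2 ratio of means of 1.82 in SI and 1.47 in colon, and among males of 1.65 and 1.38. The corresponding ratios of Id2 were 0.58 and 0.57 in females and 0.87 and 0.56 in males. In SI, 4 of 7 Paneth markers were lower in 9S/T-A, where their sum ran from 43977 to 69589 CPM against 55027 to 91569 CPM in WT, and 0 of 9 goblet markers passed the test. The tuft cell factor Pou2f3 was lower as well, at -1.18 on the log2 scale (edgeR adjusted p = 0.0197), with a median over the 4 tested tuft markers of -0.96, and the 7 enteroendocrine markers had a median of -0.83 with 0 called. The part of these markers in the Id2 and Id4 levels was not tested. In colon 0 of 7 Paneth markers and 1 of 9 goblet markers passed.

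The product of genotype and tissue, which compares the genotype difference in colon with that in SI, was smallest for Id1 (0.00 ± 0.185 on the log2 scale) and largest for Id4 (-0.31 ± 0.22). For Tcf12 it was 0.23 ± 0.0814, for Tcf4 0.21 ± 0.141, for Id2 -0.15 ± 0.15, for Tcf3 0.07 ± 0.0914 and for Id3 0.04 ± 0.186. These values rest on the genotype differences that were known when the genes were listed, and no test is drawn from them.

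The sexes were compared over all 24 libraries with the group as a term, in a contrast the choice of genes did not use. The log2 fold changes of males against females ranged from -0.09 ± 0.0738 (Id2, edgeR adjusted p = 0.48) to 0.17 ± 0.105 (Id4, edgeR adjusted p = 0.35). With edgeR, 0 of 7 genes passed the adjusted threshold, as with DESeq2, where 0.719% of 17953 genes passed it with edgeR. At an unadjusted p under 0.05 there were also 0 of 7, beside 4091 of the 17953 genes. The interval of 95% for Id3 ran from -0.04 to 0.32, so a difference between the sexes of that size was not excluded. Same-numbered SI and colon libraries varied together and each number has a single sex, so the 24 libraries are fewer than 24 independent samples of the sexes and p-values between sexes are too small.

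Id and E protein RNA were then summed per library, on the scale of CPM per kb of exon, as a description of their balance. In WT SI the 4 Id genes summed to 272 ± 38.3 CPM per kb and the 3 E proteins to 18.9 ± 1.18 CPM per kb (SD, n = 6), a ratio of 14.5 ± 2.75. In 9S/T-A SI the ratio was 19.5 ± 3.25, with a range of 14.3 to 23.3 that overlapped the WT SI range of 11 to 18.1. In WT colon the Id sum was 65.9 ± 4.15 and the E protein sum 13.6 ± 0.252 CPM per kb, a ratio of 4.83 ± 0.296. In 9S/T-A colon the ratio was 6.08 ± 1.13, ranging from 5 to 8.16 against 4.45 to 5.33 in WT colon. The colon libraries lay below all SI libraries in this ratio, and the genotypes overlapped within each tissue. Id1 and Id3 made up most of the sum. Id1 held 50.3% and Id3 39% of it in WT SI. The share of Id4 was 1.68% in WT against 4.46% in 9S/T-A cells of the SI, and 3.15% against 6.96% in the colon. The lower E protein sum in colon rested on TMM, while the ratio within a library does not depend on library scaling. On plain library totals Tcf3 averaged 43.8 CPM in WT SI and 49.9 CPM in WT colon. Tcf4 then averaged 7.22 and 17.8 CPM, and Tcf12 61.2 and 60.7 CPM. RNA levels do not give the amounts of the proteins. Without division by exon length the same ratios were 2.81 and 3.88 in SI and 0.905 and 1.14 in colon (WT, then 9S/T-A).

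**Figure D3:**
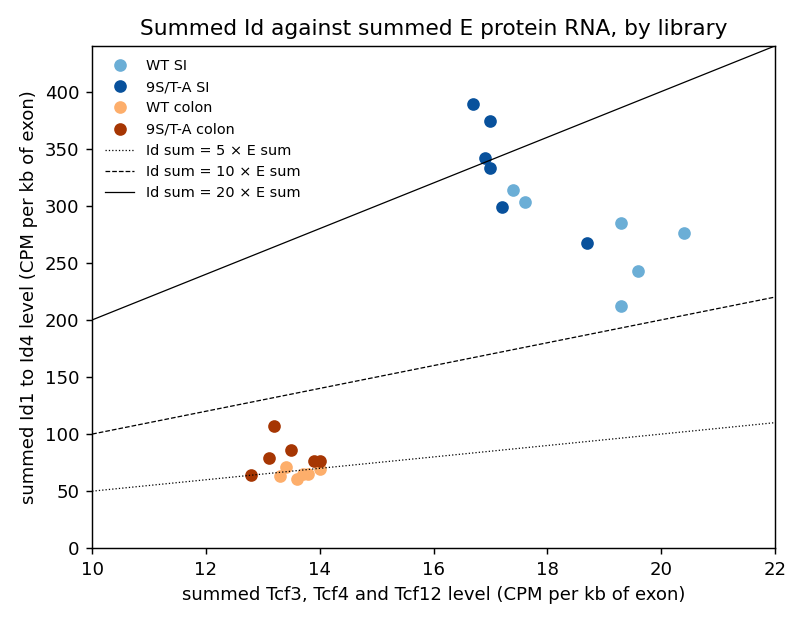
Summed level of Id1 to Id4 (y axis) against summed level of Tcf3, Tcf4 and Tcf12 (x axis, starting at 10), both in TMM-scaled CPM per kb of exon, with 1 point per library and lines at ratios of 5, 10 and 20. SI libraries lie at ratios from 11 to 23.3 and colon libraries at ratios from 4.45 to 8.16. Positions along each axis depend on the scaling, and the ratios do not.

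The members were also compared with each other across libraries. After the mean of each group was taken away, Id1 and Id3 varied together most closely among the Id genes (Pearson r = 0.63 over 24 libraries), and Id1 with Id2 had r = 0.44. Id2 and Id4, the pair that separated the genotypes, had r = 0.07. Tcf3 had negative values with every other member, from -0.43 with Tcf12 to -0.19 with Id4. Libraries of the same number share a sex and, within a genotype, may share an animal, so the 24 points are not independent, and the values are descriptions. By the rule of highest correlation among 12637 other genes, the gene whose level over the 24 libraries was most like that of Id4 was Ang (r = 0.93), an angiogenin ribonuclease, followed by Dll3 (r = 0.91), a Notch ligand family member. For Id3 these were Apobec1 and Krt20 (r = 0.99 each), for Id1 Tle1 and Dedd2 (r = 0.99 each) and for Id2 Wnt9a and Camkk2 (r = 0.97 each). For Tcf3 they were Pitx1 (r = 0.95) and Smoc2 (r = 0.94), for Tcf4 Zfp704 (r = 0.95) and Cd1d1 (r = 0.94), and for Tcf12 Gm9765 and Mmp7 (r = 0.97 each). Within groups the gene most like Id1 was Smad7 (r = 0.82), which encodes an inhibitory SMAD, and then Dok4 (r = 0.78), while for Id3 Gm7809 and Tpm4 reached r = 0.80 each. The highest values within groups were 0.69 for Id2 (Nbeal1) and for Id4 (Pafah1b2), 0.85 for Tcf3 (Mrps26), 0.80 for Tcf4 (Osbpl8) and 0.76 for Tcf12 (Rc3h1).

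Related genes were described from lists of 85 genes in all, most of them partners, regulators or relatives of the Id and E proteins and 11 of them bHLH factors that do not pair with E proteins. These lists were also drawn up with earlier results of these data known, so their p-values are not those of a blind choice. Of the 85, 56 were tested between tissues. In WT, 14 were higher and 24 lower in colon, where 63.6% of all genes tested were called in either direction. In 9S/T-A 14 were higher and 23 lower, where 60.9% of all genes were called. Of the calls in these lists, 13 changed sign on plain library totals in each genotype. The split became 39 higher and 10 lower in WT and 38 higher and 9 lower in 9S/T-A. Between genotypes 2 of 56 were called in SI, beside 1.94% of all genes tested, and 0 of 55 in colon, beside 0.318%. With library number as a term 4 were called in SI and 3 in colon, beside 477 and 385 over all genes. In colon 13 of the 55 had an unadjusted p under 0.05, beside 1497 of all 16997 genes tested. DESeq2 called 3 there, beside 238 over all genes. In the product of genotype and tissue 0 of 57 were called with edgeR and with DESeq2. Over all 17953 genes tested, 0.412% were called with edgeR, and DESeq2 called 258 genes. With library number as a term 2 of the 57 were called, beside 342 over all genes. An unadjusted p under 0.05 was held by 11 of the 57, beside 1740 of all genes tested. Between sexes only Neurog3 of the 57 was called with edgeR (log2 fold change 0.90 ± 0.158 in males, edgeR adjusted p = 0.00721), beside 0.719% of all genes. DESeq2 called 3 of the 57, beside 877 over all genes, with the same limit on the p-values as above.

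The tissue-restricted bHLH factors, which like ATOH1 pair with E proteins, had 7 members tested of 19. In WT 3 were lower in colon and 2 higher. Neurog3, which specifies enteroendocrine cells, averaged 27.4 CPM in WT SI and 2.9 CPM in WT colon (log2 fold change -3.28 ± 0.346, edgeR adjusted p = 7.22e-07). Neurod1, an enteroendocrine factor that acts after Neurog3, was at -2.30 ± 0.284, and Bhlha15 (MIST1), a factor of cells with a large secretory apparatus, at -2.17 ± 0.18. These 3 were lower in 9S/T-A colon too, at -2.82, -2.30 and -1.51. Atoh8 was higher in colon at 0.41 ± 0.156 in WT and 0.87 ± 0.151 in 9S/T-A, from group means of at most 5.01 CPM, and Lyl1 was higher at 1.01 ± 0.168 in WT.

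The HES, HEY and BHLHE repressors, some of them Notch targets, had 6 of 12 members tested. Hes6, which antagonises Hes1, was higher in colon at 0.50 ± 0.0678 in WT and 0.38 ± 0.082 in 9S/T-A. Heyl was lower at -3.74 ± 0.472 and -4.36 ± 0.48, from a mean of 0.954 CPM in WT SI. Bhlhe40, a repressor that binds E-boxes, was called between genotypes in SI, at 250.3 CPM in 9S/T-A against 180.0 CPM in WT (log2 fold change 0.48 ± 0.0991, edgeR adjusted p = 0.0236). The ETO co-repressors, which bind the activation domain of E proteins, were all tested. Cbfa2t3 (ETO2) was higher in colon at 1.40 ± 0.0889 in WT and 1.13 ± 0.102 in 9S/T-A. It was also higher in 9S/T-A than in WT SI, at 51.9 against 35 CPM (log2 fold change 0.57 ± 0.0846, edgeR adjusted p = 0.0024). Runx1t1 (ETO) was lower in colon at -3.33 ± 0.214 and -3.54 ± 0.299, from 2.13 CPM in WT SI. Cbfa2t2 was lower at -0.45 ± 0.0682 and -0.41 ± 0.0748, with a sign that turned on plain totals. The genotype calls of Bhlhe40 and Cbfa2t3 were both lost on plain totals, at log2 fold changes of 0.36 and 0.45, where the median gene was at -0.11. Their lists were not blind to these data, so the genotype values of both genes are descriptions.

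The BMP pathway, upstream of the Id genes, had 26 of 37 genes tested between tissues, of which 6 were higher and 12 lower in WT colon, a share called of 18 in 26 beside the 63.6% of all genes. On plain totals the calls were 19 higher and 4 lower, so the lean to lower levels rested on TMM. Among ligands, Bmp2 was lower at -0.94 ± 0.157 in WT and -1.33 ± 0.112 in 9S/T-A, and Bmp7 at -1.29 ± 0.116 and -0.63 ± 0.15, although on plain totals Bmp2 lost its call in WT and Bmp7 turned to 0.18 in 9S/T-A. Bmp1, a protease that processes collagen and chordin and not a BMP by sequence, was lower at -2.17 ± 0.158 and -3.01 ± 0.231. Bmp3, an antagonistic family member, was higher at 0.88 ± 0.146 and 0.83 ± 0.219. Among receptors, Bmpr1a, the main type I receptor of the epithelium, averaged 87.2 CPM in WT SI and 59.4 CPM in WT colon (log2 fold change -0.59 ± 0.0694), with the sign turned on plain totals (0.13). Acvrl1 was higher at 2.74 ± 0.281 from 0.397 CPM in WT SI. Among the SMADs that carry the signal, Smad5 was higher in colon at 1.08 ± 0.0779 and 1.07 ± 0.0723, on either scaling. Smad1 was lower at -0.27 ± 0.0692 in WT, with the sign turned on plain totals (0.44).

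The inhibitors of the pathway included the largest fall in it. Fstl1, a secreted BMP antagonist, was lower at -3.40 ± 0.327 in WT and -3.28 ± 0.348 in 9S/T-A. Bambi, a receptor decoy that is itself induced by BMP, was at -1.15 ± 0.0947 and -0.89 ± 0.135, and Smad7 at -0.68 ± 0.108 and -0.67 ± 0.134. On plain totals Smad7 stood at 0.03 and 0.13 and Bambi lost its call in 9S/T-A (-0.08). Twsg1 was higher at 0.49 ± 0.0753 and 0.52 ± 0.112. Between genotypes, 0 of 25 BMP genes were called in SI and 0 of 26 in colon with edgeR. An unadjusted p under 0.05 was held by 5 and 6 of them, beside 2556 of all 16236 genes tested in SI and 1497 of 16997 in colon. DESeq2 called 1 and 3, beside 788 and 238 over all genes. With library number as a term 0 were called in SI and 2 in colon.

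Of the enzymes that act on the stability of Id or ATOH1 protein, Usp1, a deubiquitinase of Id proteins, was lower in WT colon at -0.63 ± 0.0684 and Fzr1 (CDH1), an adaptor for Id degradation, at -0.45 ± 0.0616, and both signs turned on plain totals (0.09 and 0.26). Huwe1, a ligase for ATOH1, was higher in 9S/T-A colon than in 9S/T-A SI at 0.24 ± 0.0862. The MYC and MAX class, bHLH factors that do not pair with E proteins, had all 11 members tested, with 4 higher and 3 lower in WT colon and a median log2 fold change of 0.19. Mxd1, an antagonist of MYC, was the most changed, from 674 CPM in WT SI to 58.9 CPM in WT colon (log2 fold change -3.55 ± 0.2, edgeR adjusted p = 4.77e-10). Mxd4 was higher at 0.91 ± 0.0612 and Myc at 0.37 ± 0.0882.

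**Figure D4:**
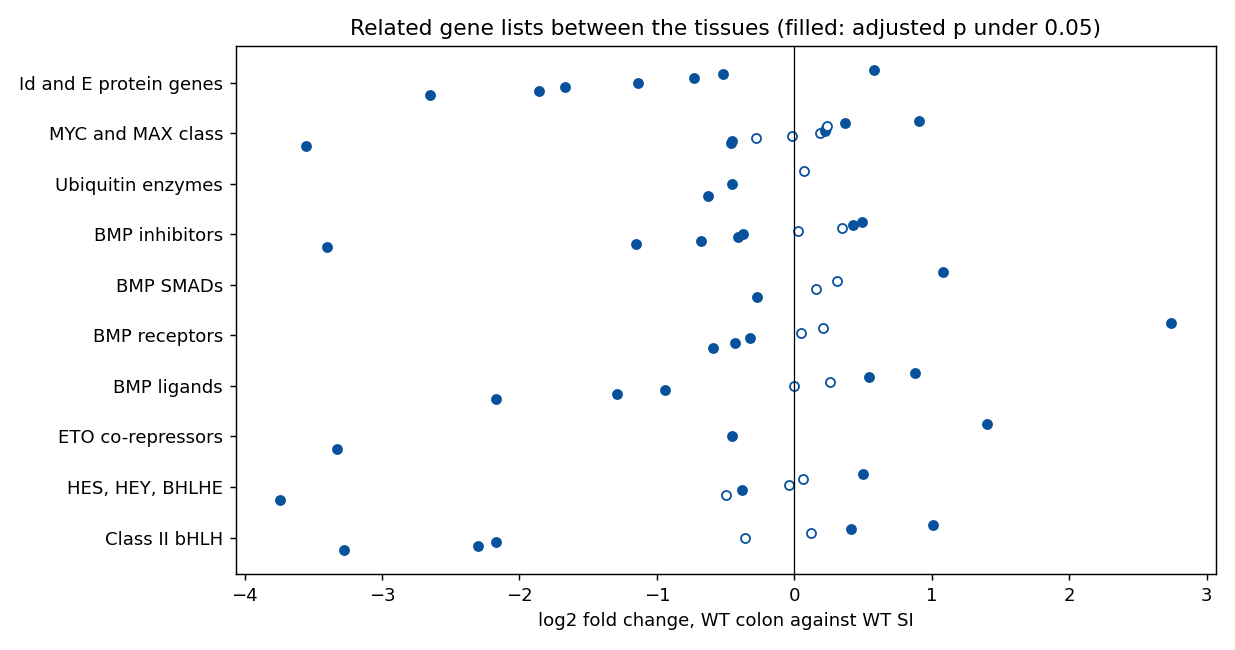
Log2 fold change between WT colon and WT SI (x axis, TMM scaling) for each tested gene of the 7 members and of the related lists, with filled points for genes past an adjusted p of 0.05 in edgeR. The 7 members are all filled and 6 of them lie below 0, while each other list holds called genes on both sides of 0 except the ubiquitin enzymes; 13 of the calls in these other lists change sign on plain library totals.

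Genes near the members on the chromosome were counted in the genotype comparison, within 2.5 Mb on each side. In SI, 3 of 408 neighbours of the 7 genes were called (0.735%, against 1.94% of all genes tested), and in colon 2 of 410 (0.488%, against 0.318%). Around Id4, 1 of 31 tested neighbours was called in SI, Cap2 (log2 fold change -1.19 ± 0.285), and 0 of 30 in colon. Around Id2, 0 of 14 were called in either tissue. The other calls were C2cd4c near Tcf3 in SI (0.59 ± 0.0797), Gm12987 near Id3 in colon (-0.80 ± 0.112) and Gm17669 near Tcf4 in both SI (-0.62 ± 0.141) and colon (-0.66 ± 0.0996). No neighbour of Id1 or Tcf12 was called with edgeR in either tissue. The window of 2.5 Mb and the names of these neighbours were chosen after the values were seen.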

How the data were processed

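RNA was sequenced as stranded poly(A) libraries with single-end reads of 50 bases. The authors aligned reads to GRCm38 (GRCm38.p3 in the submitters' processing notes) with TopHat2 2.1.1 and counted reads on the sense strand per gene with featureCounts of Subread 1.5.2. The deposited values are raw counts per gene for each library, and no normalization precedes them. Gene names were matched by identifier for 44585 of 45513 genes (97.96%). Libraries of a group were compared in 60 pairs, and none agreed within sampling noise.

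Counts were scaled by TMM and tested with edgeR 4.0.16 (filterByExpr, quasi-likelihood F test, two-sided, Benjamini-Hochberg over all genes tested, adjusted p under 0.05), within each genotype for tissues, within each tissue for genotypes, and over all 24 libraries for the product and for sex. The steps were tested on simulated counts. DESeq2 1.42.0, other scalings and filters, covariates and leaving out each library were alternatives. Library totals were 36 M to 65.8 M counts. Libraries of a group differed by more than counting error, with a chi-square per degree of freedom of at least 25.85.

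The members, the other lists and the tests were chosen with earlier results of these data known. Named genes are the 7 members, Atoh1, called genes of the other lists up to the 3 largest rises and 3 largest falls a list and contrast, and the 2 genes most correlated with each member on log2(CPM + 1), by level and by deviation from group means. Exceptions are said where they occur.

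Library numbers were taken from the labels. Deviations from group means of same-numbered libraries correlated at 0.19 to 0.60 between WT SI and WT colon. In 9S/T-A they correlated at 0.20 to 0.68, and both sets were over 0.1 in all 6 pairs. Between genotypes, where no mouse can be shared, the values were -0.12 to 0.73 in SI and 0.02 to 0.87 in colon. The correlations therefore cannot show that same-numbered SI and colon libraries share an animal. The main fits held no term for library number, so the SE and adjusted p printed between tissues are unpaired. Same-numbered libraries also share a sex.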

Additional observations from a re-analysis of the deposited data

Results flagged for a closer look

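In 28 sets of 6 libraries (7 genes in 4 groups), Dixon's test picked out 2 libraries, where chance alone picks out about 5% of sets. Tcf3 was at 55.4 CPM in 9S/T-A SI 2, above the next library at 50 CPM, a gap of 0.655 of the range. Without that library the log2 fold change of Tcf3 between the tissues in 9S/T-A was -0.41. Tcf12 was at 67 CPM in WT SI 4, below the next library at 75.9 CPM, a gap of 0.684 of the range. Without it the log2 fold change of Tcf12 was -0.73 between the tissues in WT and -0.21 between the genotypes in SI.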

How the results depend on the processing

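The count of members called between tissues was 7 of 7 in both genotypes under all alternatives except plain library totals in WT, where it was 5. Over all genes the main fit called 10794 of 16979 in WT and 10319 of 16938 in 9S/T-A. The alternatives called 10848 to 14144 genes in WT and 10357 to 14199 in 9S/T-A, most of all on plain totals. In 9S/T-A the 7 member calls were 3 higher and 4 lower on plain totals, against 1 and 6 with TMM. Leaving out each library gave 7 members in each fit between tissues, 2 in SI and 1 to 2 in colon for the genotype comparison, 0 for the product and 0 for sex. On plain totals 1 member was called between genotypes in colon. DESeq2 called 3 members in SI, with Tcf12 beside Id2 and Id4. With the replicate block (library number as a term) the calls were 7 and 7 between tissues, 2 and 2 between genotypes and 0 for the product. The log2 fold changes between genotypes were then 0.72 and 1.72 for Id2 and Id4 in SI and 0.58 and 1.46 in colon. Because the list was drawn up on the genotype comparison, nothing is read from the counts of members called there or in the product, under any setting. Between genotypes same-numbered libraries correlated at -0.12 to 0.73 in SI and 0.02 to 0.87 in colon, over 0.1 in 3 and 5 of 6 pairs. They cannot share an animal, and the numbers were not taken to pair the genotypes, although same-numbered libraries share a sex. No paired analysis was possible for sex because each number has a single sex. On plain totals the sign turned for Tcf3 between tissues (0.19 and 0.35), for Tcf12 in 9S/T-A (0.32) and for Tcf3 between sexes (-0.05), and Tcf12 in WT (-0.01) lost its call. Leaving out a library gave values between sexes of -0.01 to 0.03 for Tcf3, -0.05 to 0.03 for Tcf4 and 0.00 to 0.09 for Id1. The Id to E protein ratio without division by length was 2.81 (WT) and 3.88 (9S/T-A) in SI and 0.905 and 1.14 in colon. All 28 mean levels moved by more than 1 SD on plain totals. Over all genes, the genotype comparison in SI called 315 genes, against 788 with DESeq2, 520 with all 24 libraries, 477 with the replicate block, 561 at an adjusted p of 0.1 and 188 to 550 without 1 library. In colon it called 54, against 238 with DESeq2, 90 without a filter, 89 with sex as a covariate, 103 with all 24 libraries, 385 with the replicate block, 109 at 0.1 and 30 to 72 without 1 library. The product called 74, against 258 with DESeq2, 342 with the replicate block, 136 at 0.1 and 50 to 112 without 1 library. Sex called 129, against 877 with DESeq2, 39 on plain totals, 934 at 0.1 and 24 to 1718 without 1 library. The causes of these shifts were not tested. Reads of 50 bases counted per gene do not separate E protein isoforms.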
